A study of Xenopus laevis with 14 samples.

Results

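The translation elongation factors described here are the 16 rows of the count table, of 26807 genes in all, whose symbol without the homeolog suffix was *eef1a1*, *eef1a1o*, *eef1a2*, *eef1b2*, *eef1d*, *eef1e1*, *eef1g*, *eef2* or *eef2k*. *X. laevis* is an allotetraploid frog, and most of its genes are present as an L and an S homeolog on separate subgenomes. Of the 9 base symbols, 7 had both homeologs in the table, and *eef1b2* and *eef1e1* had an L row only. The members were chosen by symbol and not by a cutoff on their measured values, but with earlier results of these data known.

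Brains of stage 47 tadpoles were compared in 3 groups of F0 animals that shared a wild-type background. Embryos of 2 females were injected with Cas9 and a single guide RNA: a scrambled guide without a target in the unedited controls (5 libraries), a guide against *eef1a2* in the *eef1a2* CRISPants (5 libraries), and a guide against *ap3b2*, which encodes a subunit of the neuronal AP-3 vesicle adaptor, in the *ap3b2* CRISPants (4 libraries). The series text describes both edits as truncating, whereas the study's account of the *ap3b2* edit includes in-frame alleles beside frameshifts. Both CRISPant groups are mosaic, and each library was made from 6 pooled whole brains, so differences between single animals cannot be separated. Which *eef1a2* homeolog the guide cuts, and how many of its copies were edited in these pools, is not given in the sources used here.

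In each elongation cycle eEF1A, bound to GTP, delivers the aminoacylated tRNA to the ribosome. The eEF1B complex then exchanges the GDP left on eEF1A for GTP, and eEF2 moves the ribosome along the mRNA by a codon. eEF2 kinase, the product of *eef2k*, is a calcium and calmodulin dependent kinase that phosphorylates eEF2 and thereby slows elongation. In mammals eEF1A2 takes the place of eEF1A1 in mature neurons and in muscle, and variants of human *EEF1A2* cause a developmental and epileptic encephalopathy. The comparisons below ask whether the edited gene and its paralogs changed when *eef1a2* was edited, and how much of each copy was present in control brains.

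The libraries held 36563581 to 46745977 counted read pairs each. The 16 elongation factor rows took 1.86% to 2.27% of these counts in controls, 2.07% to 2.26% in *eef1a2* CRISPants and 2.04% to 2.24% in *ap3b2* CRISPants. The summed level of 12 rows of neuronal markers was at least 4790 CPM (counts relative to the library total, scaled between libraries by the trimmed mean of M-values, TMM) in every library. Summed markers of skeletal muscle, a tissue that also expresses eEF1A2 in mammals, were at 11.7 to 23.8 CPM in controls, 17.2 to 29.3 CPM in *eef1a2* CRISPants and 16.8 to 34.5 CPM in *ap3b2* CRISPants. Summed oocyte and germ cell markers were at 3.94 to 5.88 CPM over all groups. Of these, *ddx4.L* was at 3.5 to 5.59 CPM and *ddx4.S* at 0.0507 to 0.273 CPM. The other rows, *dazl.L*, *gdf9.L*, *gdf9.S*, *zar1.L*, *zar1.S* and *zp2.L*, were each at or below 0.191 CPM in every library.

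Transcripts of the edited gene were present in all libraries, and neither homeolog passed the test in either CRISPant group. *eef1a2.L* (chromosome 9_10L, 17547318 to 17560489, *X. laevis* v10.1) was measured at 137.3, 155.3, 157.3, 158.2 and 150.9 CPM in the 5 controls. In the *eef1a2* CRISPants its level was 158.1, 140.5, 173.3, 133.7 and 123.1 CPM. The highest and the lowest of these 10 values both came from *eef1a2* CRISPants, and the groups overlapped. The log2 fold change against controls was -0.06 (SE 0.08, 95% interval -0.24 to 0.12, adjusted p = 0.564, edgeR quasi-likelihood test with Benjamini-Hochberg adjustment over 20682 genes). With replicates 1 to 3 alone the sign turned, at 0.06 (adjusted p = 0.557, edgeR quasi-likelihood test).

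*eef1a2.S* (chromosome 9_10S, 16774554 to 16789563) was counted more often than *eef1a2.L* in every library. Its level was 371.6, 392.9, 403.0, 444.0 and 417.0 CPM in controls. In *eef1a2* CRISPants it was 435.3, 382.5, 432.0, 396.5 and 367.8 CPM, a range that lay almost wholly within that of the controls. The log2 fold change was -0.01 (SE 0.06, 95% interval -0.15 to 0.12, adjusted p = 0.885 by the edgeR quasi-likelihood test), and at 0.09 it was above 0 with replicates 1 to 3 alone. A small insertion or deletion can leave a transcript in place, so the mRNA level of *eef1a2* is no check of the edit. In *ap3b2* CRISPants, *eef1a2.L* differed from controls by 0.02 and *eef1a2.S* by 0.09 on the log2 scale (SE 0.06 and 0.07, adjusted p = 0.851 and 0.304, edgeR quasi-likelihood test).

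Most read pairs of the eEF1A family came from *eef1a1*, the form found in most cells. In control brains *eef1a1* took 94.9% ± 0.235 (SD, n = 5) of the read pairs of *eef1a1*, *eef1a1o* and *eef1a2* together, and *eef1a2* took 5.10% ± 0.235. *eef1a1o*, named for its oocyte form, took 0.0166% ± 0.00263. These shares are not corrected for transcript length, which was not used here, so they compare libraries and not the number of molecules of each gene. *eef1a1o.L* was counted 9 to 43 times per library and was removed by the filter on low counts, which left 15 of the 16 rows in each test. *eef1a1o.S*, at 0.799 to 1.85 CPM over all libraries, did not pass the test in either CRISPant group.

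*eef1a1.L* (chromosome 5L, 96185517 to 96216774) was at 4412, 4571, 4595, 5695 and 4973 CPM in controls. In *eef1a2* CRISPants it was at 5980, 5056, 6214, 5649 and 5493 CPM. Control replicate 4 was the only control within the range of the *eef1a2* CRISPants. Its log2 fold change of 0.22 (SE 0.08) missed the threshold at an adjusted p of 0.0519 by the edgeR quasi-likelihood test, and passed it without control replicate 4 or without *eef1a2* CRISPant replicate 2, with an adjusted p as low as 0.0119.

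*eef1a1.S* (chromosome 5S, 78393915 to 78416738) was at 5187, 5420, 5226, 6359 and 5531 CPM in controls. In *eef1a2* CRISPants it was at 6627, 5900, 6936, 6490 and 6418 CPM. All but replicate 2 of these lay above every control. It rose by 0.22 on the log2 scale (SE 0.07, adjusted p = 0.0347, edgeR quasi-likelihood test). The call was near the threshold. It was lost on leaving out any library other than control replicate 4 or *eef1a2* CRISPant replicate 2. The adjusted p then reached up to 0.0842 by the edgeR quasi-likelihood test. Whichever library was left out, the log2 fold change was 0.20 to 0.27. In bulk tissue a change in the number of cells that express a gene and a change in RNA per cell cannot be told apart.

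The share of *eef1a2* in eEF1A read pairs was lower in its CRISPants than in any control. It was 5.03%, 5.20%, 5.40%, 4.76% and 5.13% in controls. It was 4.49%, 4.56%, 4.40%, 4.18% and 3.96% in *eef1a2* CRISPants, with every value below every control. It was 4.55%, 4.61%, 4.92% and 4.80% in *ap3b2* CRISPants, which overlapped the controls and, through replicate 1, the *eef1a2* CRISPants. The means were 5.10% ± 0.235 (SD, n = 5), 4.32% ± 0.246 (n = 5) and 4.72% ± 0.172 (n = 4). The share is a score over chosen genes and was given no test. For scale, 10.8% of all genes tested lay below every control in the *eef1a2* CRISPants. That figure is for CPM of single genes, which is not the same measure as a share within a library. Of the genes in the share, *eef1a2.L* and *eef1a2.S* had log2 fold changes of -0.06 and -0.01, and neither passed its test. *eef1a1.L* and *eef1a1.S* were both at 0.22, and of these *eef1a1.S* alone passed. With library size in place of TMM, *eef1a2.L* and *eef1a2.S* were at -0.13 and -0.08 and both *eef1a1* rows at 0.16. None of these rows passed in that setting. A lower share is therefore not a fall shown in *eef1a2* itself, and how it divided between the genes depended on the scaling. The L homeolog supplied 27.2% ± 0.915 of *eef1a2* read pairs in controls and 26.5% ± 1.44 in *eef1a2* CRISPants. The log2 ratio of L to S differed by -0.06 (SE 0.06, adjusted p = 0.57, limma over 7620 homeolog pairs). A shift of 1 *eef1a2* copy against the other was not found.

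**Figure D1:**
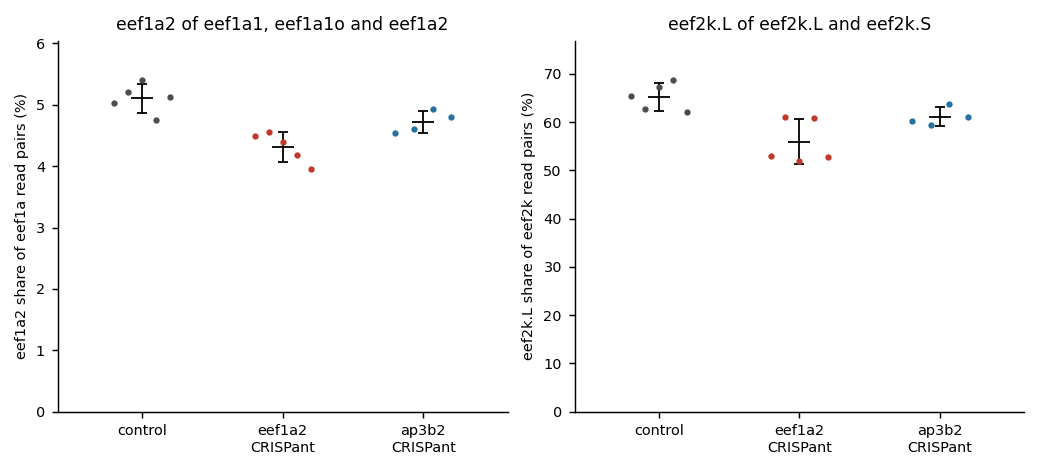
Each point is a library, and the black bar and whiskers are the group mean and SD. The left panel plots the percentage of *eef1a1*, *eef1a1o* and *eef1a2* read pairs that came from *eef1a2*, and the right panel the percentage of *eef2k* read pairs that came from *eef2k.L*. On the left the *eef1a2* CRISPants, at 3.96% to 4.56%, lie below all controls, at 4.76% to 5.40%. On the right they lie at 52.0% to 61.1%, below all controls at 62.0% to 68.6%.

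Over all members, 7 of the 15 tested rows were called in *eef1a2* CRISPants at an adjusted p under 0.05, 6 of them higher and 1 lower. Among all 20682 genes tested, 40.1% were called by the same edgeR test, 18.8% higher and 21.4% lower. None of the 15 also passed the fold change of 2 that the study required, which 0.087% of all genes passed upwards and 5.24% downwards. No member was above every control in all 5 *eef1a2* CRISPants (7.62% of all genes were), and 1 was below (10.8% of all genes). The median log2 fold change was 0.17 over the 15 rows and 0.03 over all genes. The rows that were higher were *eef1a1.S* and all 5 rows of the subunits of the eEF1B exchange complex, and the row that was lower was *eef2k.L*.

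**Figure D2:**
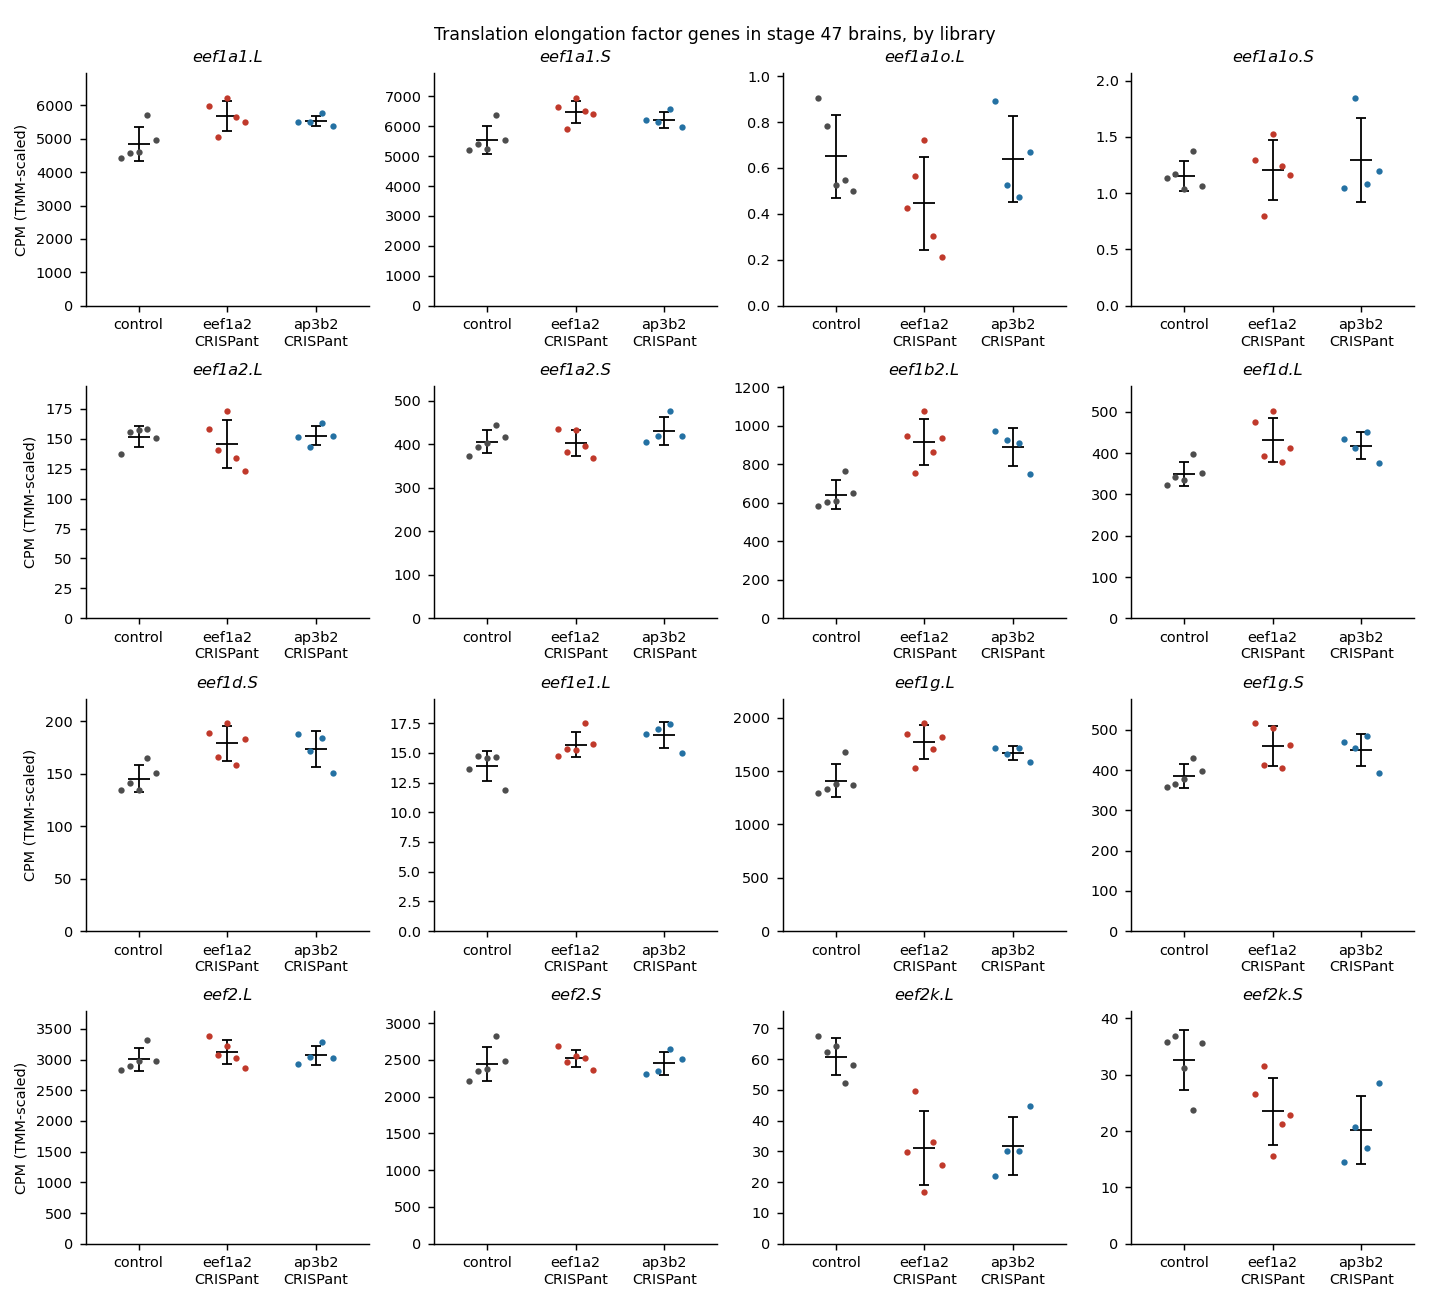
Each panel is 1 member, each point a library, and the black bar and whiskers are the group mean and SD of CPM on a linear axis from 0. The means of the eEF1B subunits (*eef1b2.L*, *eef1d*, *eef1g*) are higher in both CRISPant groups, though each of these rows overlaps the controls. *eef2.L*, *eef2.S*, *eef1a2.L* and *eef1a2.S* also overlap and passed no test. *eef2k.L* sits lower, at 16.8 to 49.6 CPM in *eef1a2* CRISPants against 52.1 to 67.5 CPM in controls.

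The eEF1B complex holds the exchange factors eEF1B2 and eEF1D and the subunit eEF1G, which anchors them. *eef1b2.L* (chromosome 9_10L, 91420110 to 91424328) had the largest change among the rows that rose. It was at 584.4, 605.2, 609.2, 766.4 and 650.8 CPM in controls. It was at 948.0, 752.8, 1078, 862.0 and 939.0 CPM in *eef1a2* CRISPants. The groups overlapped only because control replicate 4 was above *eef1a2* CRISPant replicate 2. The log2 fold change was 0.51 (SE 0.10, 95% interval 0.30 to 0.72, adjusted p = 0.0078, edgeR quasi-likelihood test). It was called without any single library, at 0.45 to 0.58.

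*eef1g.L* (chromosome 4L, 27913502 to 27929585) was at 1290, 1328, 1376, 1676 and 1367 CPM in controls. It was at 1843, 1533, 1946, 1710 and 1821 CPM in *eef1a2* CRISPants. As for *eef1b2.L*, control replicate 4 and *eef1a2* CRISPant replicate 2 crossed and the other libraries did not. It rose by 0.33 on the log2 scale (SE 0.08, adjusted p = 0.0122, edgeR quasi-likelihood test). *eef1g.S* (chromosome 4S, 1565550 to 1575128) rose by 0.25 (SE 0.08, adjusted p = 0.0247, edgeR quasi-likelihood test), from 358.8 to 431.1 CPM in controls to 406.1 to 516.3 CPM. Its call was less firm: it was lost, with an adjusted p of up to 0.064, without control replicate 1, 2 or 3 or without *eef1a2* CRISPant replicate 1, 3 or 5.

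*eef1d.L* (chromosome 6L, 162074454 to 162088292) was at 323.7, 341.1, 333.8, 397.2 and 351.0 CPM in controls. It was at 475.6, 392.7, 502.4, 379.2 and 411.3 CPM in *eef1a2* CRISPants, where replicates 2 and 4 lay within the controls, below control replicate 4. The increase was 0.30 on the log2 scale (SE 0.08, adjusted p = 0.0157, edgeR quasi-likelihood test). *eef1d.S* (chromosome 6S, 135508390 to 135520190) rose by the same 0.30 (SE 0.07, adjusted p = 0.0118, edgeR quasi-likelihood test), from 134.3 to 164.9 CPM in controls to 158.2 to 198.0 CPM. The calls of *eef1d.L*, *eef1d.S* and *eef1g.L* were kept whichever library was left out. The L share of the pair was 70.7% in both groups for *eef1d*, and 78.4% in controls against 79.4% in *eef1a2* CRISPants for *eef1g* (adjusted p of the ratio 0.999 and 0.349, limma), so the homeologs of each pair were not found to differ in their change.

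*eef1e1.L* (chromosome 6L, 94558167 to 94564633) encodes the auxiliary protein of the aminoacyl-tRNA synthetase complex that carries an elongation factor name but takes no part in nucleotide exchange. It was at 13.6, 14.8, 14.6, 14.7 and 11.9 CPM in controls. It was at 14.8, 15.3, 15.2, 17.5 and 15.8 CPM in *eef1a2* CRISPants, where all but replicate 1 lay above every control. Its log2 fold change of 0.17 (SE 0.09, 95% interval -0.01 to 0.36) did not pass the edgeR quasi-likelihood test (adjusted p = 0.122).

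The translocase itself did not pass the test in either homeolog. *eef2.L*, which the RefSeq gene table lists as *eef2.1.L* (chromosome 1L, 100516123 to 100524903), was at 2836 to 3326 CPM in controls and 2870 to 3383 CPM in *eef1a2* CRISPants. *eef2.S* was at 2207 to 2822 CPM and 2367 to 2693 CPM. The ranges overlapped almost fully, with log2 fold changes of 0.05 (95% interval -0.09 to 0.20) and 0.04 (-0.12 to 0.20) and adjusted p-values of 0.55 and 0.685 by the edgeR quasi-likelihood test. Their signs depended on the scaling, since both were just below 0 with library size in place of TMM. The L homeolog supplied 55.1% ± 0.858 of *eef2* read pairs in controls and 55.3% ± 0.562 in *eef1a2* CRISPants.

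The kinase of eEF2 showed the largest difference of the set. *eef2k.L* (chromosome 9_10L, 111443188 to 111511051) was at 67.5, 62.3, 64.2, 52.1 and 58.0 CPM in controls. It was at 29.9, 49.6, 16.8, 33.0 and 25.6 CPM in *eef1a2* CRISPants. Every *eef1a2* CRISPant library lay below every control, with replicate 2 close to the lowest control and replicate 3 farthest away. It fell by 0.97 on the log2 scale (SE 0.22, 95% interval -1.46 to -0.48, adjusted p = 0.00994, edgeR quasi-likelihood test). Without any single library it stayed called, at -1.20 to -0.81, and it passed the fold change of 2 without control replicate 4 or *eef1a2* CRISPant replicate 2. With replicates 1 to 3 alone the log2 fold change was -1.01 and the call was lost (adjusted p = 0.0768, edgeR quasi-likelihood test on 3 libraries a group).

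*eef2k.S* was at 35.8, 36.9, 31.2, 23.8 and 35.6 CPM in controls. It was at 26.5, 31.6, 15.6, 21.2 and 22.8 CPM in *eef1a2* CRISPants. The groups overlapped through control replicates 3 and 4 and *eef1a2* CRISPant replicates 1 and 2. Its log2 fold change of -0.47 (SE 0.18, 95% interval -0.86 to -0.08) missed the threshold (adjusted p = 0.0541, edgeR quasi-likelihood test), and passed it at an adjusted p as low as 0.011 without control replicate 4 or without *eef1a2* CRISPant replicate 2.

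Within the *eef2k* pair the balance of homeologs shifted towards S. *eef2k.L* supplied 65.2% ± 2.83 (SD, n = 5) of the read pairs in controls and 56.0% ± 4.63 (n = 5) in *eef1a2* CRISPants, without overlap between 62.0% to 68.6% and 52.0% to 61.1%. The log2 ratio of L to S differed by -0.56 (SE 0.14, adjusted p = 0.0179, limma over 7620 pairs). Such shifts were common, since 24.7% of all pairs passed this test. In *ap3b2* CRISPants the L share was 61.1% ± 1.94 (n = 4), the ratio differed from controls by -0.26 (SE 0.10), and the test was not passed (adjusted p = 0.0978, limma over 7673 pairs, of which 23.8% passed).

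The *ap3b2* CRISPants show the same members under an edit of an unrelated gene, against the same 5 controls, so the comparisons are not independent. At an adjusted p under 0.05, 8 of 15 rows were called, 6 higher and 2 lower, against 42.7% of the 20800 genes tested, 20.0% higher and 22.8% lower (edgeR quasi-likelihood test). None passed a fold change of 2, as 0.0769% of all genes did upwards and 5.11% downwards. The rows that rose were *eef1b2.L*, *eef1d.L*, *eef1d.S*, *eef1e1.L*, *eef1g.L* and *eef1g.S*, and the rows that fell were *eef2k.L* and *eef2k.S*. *eef1e1.L* was above every control in all 4 libraries (10.2% of all genes were), and *eef2k.L* was below (15.3% of all genes).

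**Figure D3:**
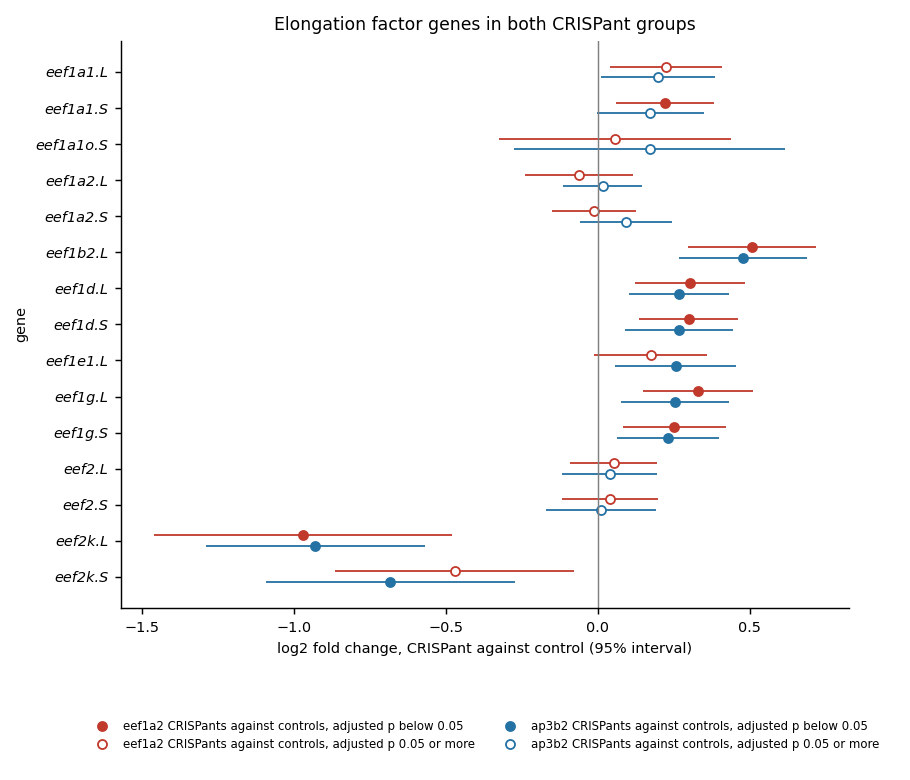
Points are log2 fold changes against controls from the edgeR quasi-likelihood fit, lines their 95% intervals, red for *eef1a2* CRISPants and blue for *ap3b2* CRISPants, filled where the adjusted p is below 0.05. The eEF1B subunits lie to the right of 0 and *eef2k* to the left in both, from 0.51 for *eef1b2.L* to -0.97 for *eef2k.L* in *eef1a2* CRISPants, while the intervals of *eef1a2* and *eef2* span 0. Both comparisons use the same controls.

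*eef1b2.L* was at 975.6, 924.7, 911.0 and 751.0 CPM in *ap3b2* CRISPants. Replicates 1 to 3 lay above every control and replicate 4 within them, just below control replicate 4. It rose by 0.48 on the log2 scale (SE 0.10, adjusted p = 0.00386, edgeR quasi-likelihood test). *eef2k.L* was at 22.0, 30.2, 30.1 and 44.6 CPM and fell by 0.93 (SE 0.16, adjusted p = 0.003, edgeR quasi-likelihood test). *eef2k.S* was at 14.6, 20.6, 17.0 and 28.5 CPM, of which replicate 4 alone overlapped the controls. It fell by 0.68 (SE 0.19, adjusted p = 0.0138, edgeR quasi-likelihood test). These 3 rows and *eef1d.L*, at 0.27 (adjusted p = 0.0152, edgeR quasi-likelihood test), stayed called whichever library was left out. *eef1d.L* and *eef2k.S* then came near the threshold, at an adjusted p of up to 0.0494 and 0.0455 by that test. Both were lost with a term for replicate number added (adjusted p = 0.0758 for each, edgeR).

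The other calls in *ap3b2* CRISPants were also near the threshold and were lost on leaving out any of several libraries. The log2 fold changes stayed positive throughout. They were at 0.21 to 0.30 for *eef1e1.L*, 0.23 to 0.32 for *eef1g.L*, 0.23 to 0.33 for *eef1d.S* and 0.20 to 0.29 for *eef1g.S*. *eef1e1.L* was at 16.6, 17.0 and 17.5 CPM in replicates 1 to 3, and replicate 4 was lowest, just above the highest control. By the edgeR quasi-likelihood test it rose by 0.26 on the log2 scale (SE 0.09, adjusted p = 0.0405). Its call and that of *eef1g.L* (0.25, adjusted p = 0.0269, edgeR) were lost without any library other than control replicate 4 and *ap3b2* CRISPant replicate 4. The adjusted p then reached 0.105 and 0.069. Those of *eef1d.S* (0.27, adjusted p = 0.0223, edgeR) and *eef1g.S* (0.23, adjusted p = 0.0305, edgeR) were lost without replicate 1, 2 or 3 of either group, at up to 0.0711 and 0.0898. *eef1a1.L* and *eef1a1.S*, with log2 fold changes of 0.20 and 0.17, did not pass (adjusted p = 0.0815 and 0.103, edgeR), and both passed without control replicate 4, at 0.00849 and 0.0154. With replicates 1 to 3 alone both also passed, at 0.29 and 0.25 (adjusted p = 0.000146 and 0.000733, edgeR). In *eef1a2* CRISPants neither passed in that setting, at 0.34 and 0.29 (adjusted p = 0.0508 and 0.0551, edgeR). The share of all genes called also differed there. In *ap3b2* CRISPants 5743 genes were higher and 6383 lower of 21083. In *eef1a2* CRISPants 2012 were higher and 1169 lower of 21105. Passing in 1 group alone is therefore not read as a difference in *eef1a1* between the edits.

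Compared directly, the CRISPant groups were not told apart. No gene of 20584 passed the edgeR quasi-likelihood test (179 genes, or 0.87%, were at an unadjusted p under 0.05, and DESeq2 gave 0 and 228), and no member had an unadjusted p under 0.05. The intervals bound how far they could differ. *ap3b2* minus *eef1a2* CRISPants was 0.07 for *eef1a2.L* (95% interval -0.14 to 0.28) and 0.09 for *eef1a2.S* (-0.07 to 0.26). For *eef1a1.L* it was -0.04 (-0.21 to 0.14) and for *eef1a1.S* -0.06 (-0.23 to 0.11). It was -0.04 for *eef1b2.L* (-0.28 to 0.20). It was 0.03 for *eef2k.L* (-0.59 to 0.66) and -0.22 for *eef2k.S* (-0.72 to 0.28). These were the widest intervals among these rows, so a difference in the kinase between the edits was less closely bounded.

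Among libraries of a group, *eef1b2.L* and *eef2k.L* were at opposite extremes. In each of the 3 groups the library with the most *eef1b2.L* had the least *eef2k.L*. The library with the least *eef1b2.L* had the most *eef2k.L*. The TMM factor also had its extremes in these libraries. It was lowest, at 1.015, 0.942 and 0.956, in control replicate 4, *eef1a2* CRISPant replicate 3 and *ap3b2* CRISPant replicate 1. It was highest, at 1.038, 1.013 and 1.025, in control replicate 1, *eef1a2* CRISPant replicate 2 and *ap3b2* CRISPant replicate 4. Whether the opposition is particular to this pair was not tested. Control replicate 4 was the control nearest to the CRISPants for both genes, at 766.4 and 52.1 CPM. *eef1a2* CRISPant replicate 2 (752.8 and 49.6 CPM) and *ap3b2* CRISPant replicate 4 (751.0 and 44.6 CPM) were the CRISPants nearest to the controls. The other eEF1B rows did not all keep to this order: within *eef1a2* CRISPants *eef1d.L* and *eef1d.S* were lowest in replicate 4 and *eef1g.S* was highest in replicate 1. The pair was picked after its values were seen, and the samples form groups, so no pooled correlation was computed.

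**Figure D4:**
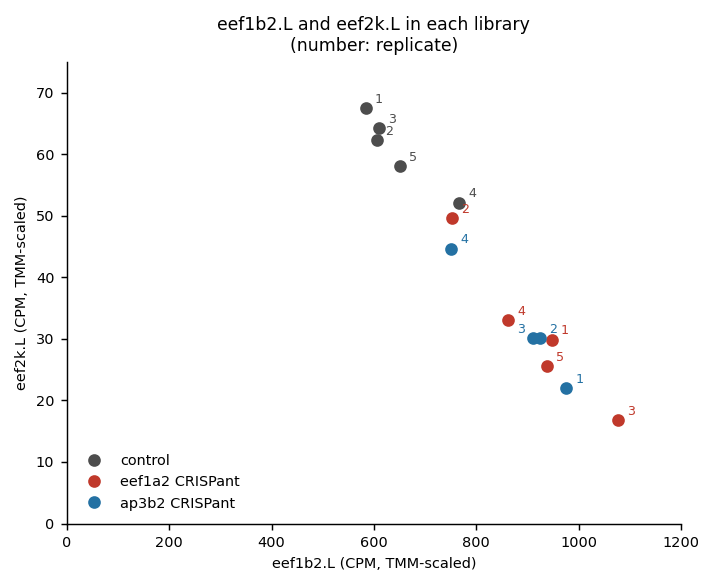
Each point is a library, with its replicate number, placed by its level of *eef1b2.L* and of *eef2k.L*, both in CPM on linear axes from 0. Controls lie at the upper left and most CRISPants at the lower right, and control replicate 4, *eef1a2* CRISPant replicate 2 and *ap3b2* CRISPant replicate 4 lie together between them, at 751.0 to 766.4 CPM of *eef1b2.L*.

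Other quantities were set beside these results. Gene span is one: *eef2k.L* spans 67864 bases and *eef1b2.L* 4219 bases. With the trend of each library on gene span removed, the log2 fold changes in *eef1a2* CRISPants were -0.85 for *eef2k.L* (adjusted p = 0.0102, edgeR) and 0.31 for *eef1b2.L* (adjusted p = 0.00887, edgeR). *eef1a1.L* then passed (0.26, adjusted p = 0.0273, edgeR) and *eef1g.S* did not (0.12, adjusted p = 0.147, edgeR). In *ap3b2* CRISPants *eef1d.L*, *eef1d.S*, *eef1e1.L* and *eef1g.S* no longer passed and *eef1a1.L* did, while both *eef2k* rows and *eef1b2.L* stayed called. Summed markers of radial glia and progenitors were at 1070 to 1280 CPM in controls, 1200 to 1540 CPM in *eef1a2* CRISPants and 1290 to 1430 CPM in *ap3b2* CRISPants, with 4 of 9 rows higher and 1 lower in *eef1a2* CRISPants and 3 higher and 1 lower in *ap3b2* CRISPants. Summed neuronal markers were at 4790 to 5400 CPM in controls, 5110 to 5750 CPM in *eef1a2* CRISPants and 5390 to 5590 CPM in *ap3b2* CRISPants, with 3 of 12 rows higher in each CRISPant group and 1 and 2 lower. Of all genes tested, 18.8% were higher and 21.4% lower in *eef1a2* CRISPants, and 20.0% and 22.8% in *ap3b2* CRISPants. So few marker rows do not set either list apart from these shares. Summed epidermal markers were at 7.19 to 10.9, 8.04 to 35.0 and 7.55 to 42.1 CPM, with medians of 8.67, 14.7 and 13.1 CPM. Of the 4 epidermal rows tested, 2 were higher and 1 lower in *eef1a2* CRISPants, and 2 higher and 0 lower in *ap3b2* CRISPants. These are also too few to set against the shares of all genes. *krt12.5.L* was highest in *eef1a2* CRISPant replicate 2 (14.3 CPM) and *ap3b2* CRISPant replicate 4 (18.4 CPM). *epcam.S* was at 1.73 to 3.08 CPM in controls, 1.09 to 2.08 in *eef1a2* CRISPants and 2.06 to 2.37 in *ap3b2* CRISPants. *epcam.L* was at 1.49 to 1.96, 1.5 to 1.93 and 1.31 to 2.14 CPM. The part of these cells in the elongation factor results was not tested.

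The scaling between libraries mattered as well. With library size in place of TMM, 31.4% of all calls in *eef1a2* CRISPants were higher in place of 46.7%. Of 20682 genes, 2322 were higher and 5080 lower, and 4 elongation factor rows were higher and 2 lower. *eef1a1.S* and *eef1g.S* were lost and *eef2k.S* was gained (adjusted p = 0.0435, edgeR). In *ap3b2* CRISPants the share of higher calls was 32.2% in place of 46.7%, with 2573 of 20800 genes higher. There *eef1b2.L* and *eef1d.L* were the rows still higher.

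Nearly all ribosomal protein mRNAs were higher. In vertebrates these mRNAs carry a terminal oligopyrimidine tract, as do those of some elongation factors. No sequence was examined here, and a part of this tract in the results was not tested. This list and those below were chosen with earlier results of these data known. Of 138 rows tested, 136 were higher and 0 were lower in *eef1a2* CRISPants, against 18.8% of all genes higher and 21.4% lower. The median log2 fold change was 0.57 against 0.03 for all genes. In *ap3b2* CRISPants the counts were the same, against 20.0% and 22.8% of all genes, and the median was 0.59. *rpl31.S*, of the large subunit, rose from 340.0 ± 31.8 CPM (SD, n = 5) to 564.9 ± 115 CPM (n = 5) in *eef1a2* CRISPants (log2 fold change 0.73, SE 0.12, adjusted p = 0.0078, edgeR). *rpl35a.S* rose by 0.77 (adjusted p = 0.0108, edgeR). In *ap3b2* CRISPants *rps29.L*, of the small subunit, rose by 0.77 and *rpl36a.L* by 0.75 (adjusted p = 0.00299 and 0.00296, edgeR). With the trend on gene span removed the medians were 0.41 in both.

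Enzymes that modify elongation factors, such as those that make diphthamide on eEF2 or methylate lysines of eEF1A, were higher in 5 of 15 rows in *eef1a2* CRISPants and in 6 of 16 in *ap3b2* CRISPants, and none was lower, against 18.8% and 20.0% of all genes higher and 21.4% and 22.8% lower. With 15 and 16 rows this list was too small to be set apart from those shares, and it was given no test. The medians were 0.18 and 0.17. With the trend on gene span removed, 4 rows were higher in each group and 1 was lower in *ap3b2* CRISPants. *dph3.L*, of the diphthamide pathway, rose from 3.79 ± 0.391 to 5.91 ± 1.09 CPM in *eef1a2* CRISPants (log2 fold change 0.64, SE 0.14, adjusted p = 0.00884, edgeR). In *ap3b2* CRISPants *dph7.L*, of the same pathway, rose by 0.55 (adjusted p = 0.0139, edgeR) and *eef1akmt4.S*, an eEF1A lysine methyltransferase, by 0.48 (adjusted p = 0.00677, edgeR). Mitochondrial elongation factors were higher in 2 of 7 rows and lower in 0 in each CRISPant group, with medians of 0.18 and 0.20, and 1 row was higher in each with the span trend removed. So few rows do not set this list apart from the 18.8% and 20.0% of all genes that were higher. *tsfm.L*, the mitochondrial exchange factor, rose by 0.29 in *ap3b2* CRISPants (adjusted p = 0.0362, edgeR).

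The remaining lists held few calls. Factors that act on elongating or terminating ribosomes were higher in 1 and lower in 2 of 14 rows in *eef1a2* CRISPants, and higher in 3 and lower in 2 in *ap3b2* CRISPants, with medians of 0.01 and 0.09. Among them *eefsec.S*, the selenocysteine elongation factor, fell by 0.83 in *eef1a2* CRISPants, from 5.98 ± 0.325 (SD, n = 5) to 3.35 ± 1.05 CPM (n = 5) (SE 0.20, adjusted p = 0.0105, edgeR). It fell by 1.04 in *ap3b2* CRISPants (adjusted p = 0.00292, edgeR), where *gspt1.S*, a release factor GTPase, fell by 0.38 (adjusted p = 0.0402, edgeR). The aminoacyl-tRNA synthetase complex was higher in 2 of 20 rows in each and lower in 0 and 1, with medians of 0.07 and 0.09. Regulators of eEF2 kinase, which include mTOR, AMP-activated kinase, calmodulin and protein phosphatase 2A genes, were higher in 1 and lower in 3 of 15 rows in *eef1a2* CRISPants, and higher in 2 and lower in 3 in *ap3b2* CRISPants, with a median of 0.07 in both. Other than the 3 of 14, these counts made up a smaller share of their rows than the calls in that direction did among all genes.

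The genes whose log2 CPM was most like that of *eef1a2.L* over the 14 libraries were *hspbap1.L* (Pearson r = 0.81), *pdgfrl.L* (0.809) and *sfxn3.L* (0.803), of 21328 genes. Those most like *eef1a2.S* were *pabpc1.S* (0.899), *ddx18.S* (0.891) and *gck.L* (0.855). The homeologs of *eef1a2* correlated with each other at 0.753. The genes named are the highest of all, so a lower value for a gene fixed beforehand says little. These values describe the same 14 libraries, which share their groups and their depth, and were given no test.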

How the data were processed

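Whole-brain RNA of 14 pools was made into reverse-stranded mRNA libraries and sequenced as pairs of 100-base reads. The authors used STAR for alignment to *X. laevis* v10.1 and featureCounts for counting, and the deposited counts for 26807 genes are whole read pairs without normalization. The deposited log2 CPM values for 21328 genes equal edgeR values with TMM scaling and a prior count of 2, to within 4.99e-09. They served for this check alone. The likeness of genes to *eef1a2* used the recomputed edgeR values. Reads were not analysed here. Groups and replicate numbers were taken from the labels. The series text gives 5 replicates per condition, and 4 *ap3b2* CRISPant libraries were analysed here.

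The members and the lists of other genes were chosen with earlier results of these data known. Every member row was named. Each list was given by its counts and median, and of it the 2 rows with the largest change among those called without overlap between the groups were named. For each *eef1a2* homeolog the 3 genes with the highest correlation were named.

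Counts were compared in R 4.3.3 with edgeR 4.0.16, using the libraries of the groups compared alone. A gene was dropped when at least 4 of these libraries did not exceed a CPM of 1, and the quasi-likelihood F test was run with group as the sole term and Benjamini-Hochberg adjustment over all genes tested, with a threshold of 0.05. Ratios of L to S counts, with 1 added to each, were compared with limma 3.58.1 over all homeolog pairs. CPM in the text was scaled by TMM over 14 libraries. With 36563581 to 46745977 counts per library, the SD between libraries covers counting error and differences between pools. Scripts were tested on simulated data, with 200 genes changed at each size. For *eef1a2* CRISPants and controls, the edgeR test recovered 12% of log2 changes of 0.3 and 88% of those of 1. Between the CRISPant groups it recovered 4.5% and 81%. A small change that did not pass is therefore not shown to be absent. More genes were called against controls in the real data than were changed there, so these shares may not carry over. Positions and gene spans came from a RefSeq gene table of *X. laevis* v10.1, in which 13 member rows were matched by symbol, 1 by a synonym, and *eef2.S* and *eef2k.S* were not matched. A gene without a span was given that of its homeolog where known. Transcript lengths and sequences were not used here, so levels were not compared between genes. Alternatives, including DESeq2 1.42.0, are given in the closing section.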

Additional observations from a re-analysis of the deposited data

Results flagged for a closer look

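The level of *eef1g.L* in control replicate 4 was 1676 CPM, and it stood apart from the other controls. Its gap to the next control, divided by the range of the 5 controls, was 0.777, above the critical value of 0.71. Of 75 groups of values examined in this way, 1 was marked, and chance marks about 1 in 20. Without control replicate 4 the log2 fold change of *eef1g.L* was 0.40 in *eef1a2* CRISPants and 0.32 in *ap3b2* CRISPants.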

How the results depend on the processing

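With library size in place of TMM, the rows called in *ap3b2* CRISPants numbered 4 (2 higher) in place of 8 (6 higher). Among all 20800 genes, 2573 were then higher and 5412 lower, in place of 4153 and 4732. In *eef1a2* CRISPants 2 rows were then lower in place of 1, and 1 passed a fold change of 2 in place of 0. Of all 20682 genes, 5080 were lower in place of 4425, and 1268 fell past a fold change of 2 in place of 1083. The median of all genes moved by less than 0.1 on the log2 scale, from 0.03 to -0.04 in both. DESeq2 and the edgeR likelihood ratio test also gave 2 lower rows in *eef1a2* CRISPants, *eef2k.S* being the second. Each gave 7 higher rows in place of 6, with *eef1a1.L* added. Of all 20682 genes, DESeq2 gave 4129 higher and 4879 lower. The likelihood ratio test gave 3853 and 4626, in place of 3878 and 4425. With the trend on gene span removed, 5 rows (3 higher) were called in *ap3b2* CRISPants. That setting called 3986 genes higher and 4441 lower of 20800. With replicates 1 to 3 alone, 0 rows were lower in *eef1a2* CRISPants, where 1169 of 21105 genes were. There 0 member pairs passed the ratio test in place of 1, with fewer libraries. In *ap3b2* CRISPants 2 rows, *eef2k.L* and *eef2k.S*, fell past a fold change of 2, as did 2195 of 21083 genes.

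On leaving out each library in turn, 5 to 9 rows were called in *eef1a2* CRISPants (4 to 7 higher, 1 to 2 lower, 0 to 1 past a fold change of 2). In *ap3b2* CRISPants 4 to 10 were called (2 to 8 higher, 2 lower throughout, 0 to 1 past a fold change of 2). The lowest counts in *ap3b2* CRISPants came without replicate 1, 2 or 3 of either group and the highest without control replicate 4. These counts have no shares of all genes beside them and are not read as particular to the members. The mean share of *eef1a2* stayed at 5.03% to 5.19% in controls and 4.26% to 4.41% in *eef1a2* CRISPants. No member was called between the CRISPant groups under any alternative run.

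The replicate block gave 2 lower rows and 1 past a fold change of 2 in *eef1a2* CRISPants. There *eef1a1.S* and *eef1g.S* were lost and *eef2k.S* was gained. Of all 20682 genes, 4487 were then lower, and 1258 fell past a fold change of 2. In *ap3b2* CRISPants the block left 2 rows called, 1 higher (*eef1b2.L*) and 1 lower (*eef2k.L*). Among all 20800 genes it left 2426 higher and 3497 lower, in place of 4153 and 4732. The numbers were not treated as pairs, since deviations of same-numbered samples correlated at -0.22 to 0.36 for *eef1a2* CRISPants and controls and -0.06 to 0.306 for *ap3b2* CRISPants and controls, and not every sample correlated best with its own number.

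The log2 fold changes that turned their sign belonged to rows that passed no test in that comparison. With library size in place of TMM, *eef1a1o.S* (-0.012), *eef2.L* (-0.014) and *eef2.S* (-0.026) turned in *eef1a2* CRISPants, and *eef1a2.L* (-0.058), *eef2.L* (-0.035) and *eef2.S* (-0.061) in *ap3b2* CRISPants. With the span trend removed, *eef1a1o.S* (-0.14), *eef2.L* (-0.084) and *eef2.S* (-0.096) turned in *eef1a2* CRISPants, and *eef1a1o.S* (-0.038), *eef1a2.L* (-0.089), *eef2.L* (-0.12) and *eef2.S* (-0.15) in *ap3b2* CRISPants. *eef2.S* turned with DESeq2 in *ap3b2* CRISPants (-0.0009). With replicates 1 to 3 alone, *eef1a2.L* (0.065) and *eef1a2.S* (0.095) turned in *eef1a2* CRISPants, and *eef1a2.L* (-0.046), *eef1b2.L* (0.014) and *eef2k.L* (-0.24) between the CRISPant groups. With a library left out, *eef1a1o.S* (-0.033 to 0.18) and *eef1a2.S* (-0.039 to 0.021) crossed 0 in *eef1a2* CRISPants. *eef1a1o.S* (-0.050 to 0.26), *eef1a2.L* (-0.017 to 0.044) and *eef2.S* (-0.027 to 0.067) crossed it in *ap3b2* CRISPants, and 7 rows crossed it between the CRISPant groups: *eef1a1o.S* (-0.12 to 0.20), *eef1b2.L* (-0.10 to 0.031), *eef1d.L* (-0.092 to 0.011), *eef1d.S* (-0.084 to 0.018), *eef1g.S* (-0.072 to 0.027), *eef2.L* (-0.058 to 0.0063) and *eef2k.L* (-0.18 to 0.27). The cause was not tested.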
